A study of Mus musculus with 2 samples.

Results

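Granzymes are the serine proteases of cytotoxic granules, and 9 granzyme genes (*Gzma*, *Gzmb*, *Gzmc*, *Gzmd*, *Gzme*, *Gzmf*, *Gzmg*, *Gzmk* and *Gzmm*) are described here out of 14732 gene symbols listed for at least 1 of 2 RNAseq libraries. The members were set as a list of symbols with earlier results of these data known, and all 9 were listed in both libraries. OT-I CD8+ T cells carry a transgenic receptor for a peptide of ovalbumin (OVA), and they came from spleen and lymph nodes of C57BL/6 mice aged 6 to 8 weeks. Both groups were OT-I transgenic and received OVA257-264 peptide (SIINFEKL, 2.5 ng/mL) plus IL-2 (10 U/mL) for 24 h before retroviral transduction with polybrene, either with the empty vector (control) or with a vector that also encoded Eomes. The vector carries human CD2 as a sorting mark, so 48 h after transduction the hCD2+ cells of either group were sorted, plated at 40000 per well and stimulated again for 3 days with the same peptide and IL-2 doses. *Eomes* is driven by the vector in these cells, and how many mice contributed to a culture was not stated. The comparison asks how the T-box factor Eomes, when overexpressed, alters the transcripts of activated CD8+ T cells.

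Each group was 1 library, so no difference below has a replicate check or a p-value. Values are FPKM, which divide the reads of a gene by the length of its transcript and by the depth of the library, as printed in the deposited files with 2 decimals. A gene was called expressed at an FPKM of at least 1 in at least 1 library, and ratios are Eomes-overexpressing over control. The vector target was in place, with *Eomes* at an FPKM of 2.47 in control and 129.64 with Eomes. The depth was approximately 19300000 reads in each library, estimated from the spacing of the lowest values. Of the CD8 T cell markers, 8 of 8 were expressed, although *Cd8a*, the alpha chain of the co-receptor, was at 181.81 in control and 99.1 with Eomes. Summed markers of other lineages were low: 16.3 and 12.24 for 6 CD4 T cell genes, 2.87 and 1.62 for 6 B cell genes, 1.4 and 1.3 for 8 myeloid genes and 1.0 and 1.67 for 8 mast cell genes. The 6 natural killer (NK) cell genes summed to 44.29 and 53.29, with *Ncr1* and *Klra8* not listed in either library.

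Granzymes are made as inactive precursors, trimmed by cathepsin C and stored on serglycin in the lytic granule. After the granule fuses with the membrane facing a target cell, perforin lets them into that cell, where they cleave proteins that keep it alive. Granzyme B cuts after aspartate and cleaves Bid, granzymes A and K cut after basic residues, and granzyme M cuts after methionine or leucine. Granzymes C to G are encoded beside *Gzmb* in the mouse and are less well characterized, and granzymes A and B are the classical products of activated CD8+ T cells.

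The genes lie in 3 places of the mouse genome (mm10). Going up the coordinates of chromosome 14, *Gzme*, *Gzmd*, *Gzmg*, *Gzmf*, *Gzmc* and *Gzmb* occupied 144.6 kb, and all 6 are read from the minus strand. *Gzma* and *Gzmk* lie on the minus strand of chromosome 13, and *Gzmm* lies on the plus strand of chromosome 10. The stretch before the start is shown for all granzymes except the barely detected *Gzmm* because *Gzmc*, *Gzmd*, *Gzme*, *Gzmf* and *Gzmg* had closely similar promoters and yet differed in their ratios. Sequences are from the RefSeq promoter table of GRCm38.p6, the assembly called mm10, and run 5′ to 3′ on the strand of the gene to 7 bases past its start site. Capitals mark AGGTGT, a core of T-box sites, and TGTGGT, a core of Runx sites, on either strand (ACACCT and ACCACA are the same letters on the other strand). The first 3 belong to the genes with the high ratios on chromosome 14, the next 2 to their close relatives without a high ratio, then come *Gzmb* and the pair on chromosome 13.
Gzme, chr14:56120618-56120767, minus strand: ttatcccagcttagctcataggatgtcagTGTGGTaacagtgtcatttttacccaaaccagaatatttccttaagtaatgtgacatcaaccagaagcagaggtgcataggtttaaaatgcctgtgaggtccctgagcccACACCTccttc
Gzmd, chr14:56132586-56132735, minus strand: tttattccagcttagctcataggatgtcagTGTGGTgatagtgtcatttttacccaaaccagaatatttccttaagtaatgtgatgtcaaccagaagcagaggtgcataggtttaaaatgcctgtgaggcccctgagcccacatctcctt
Gzmg, chr14:56159572-56159721, minus strand: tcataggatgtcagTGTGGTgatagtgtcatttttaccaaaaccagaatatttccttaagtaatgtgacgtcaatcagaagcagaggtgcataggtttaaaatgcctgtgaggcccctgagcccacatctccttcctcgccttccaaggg
Gzmf, chr14:56211400-56211549, minus strand: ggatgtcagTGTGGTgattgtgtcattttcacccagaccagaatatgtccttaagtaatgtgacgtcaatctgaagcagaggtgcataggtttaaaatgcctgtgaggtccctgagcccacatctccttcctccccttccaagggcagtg
Gzmc, chr14:56234650-56234799, minus strand: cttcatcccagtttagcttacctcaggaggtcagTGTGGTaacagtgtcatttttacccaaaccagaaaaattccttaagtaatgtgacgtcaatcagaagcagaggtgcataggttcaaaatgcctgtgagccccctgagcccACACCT
Gzmb, chr14:56262327-56262526, minus strand: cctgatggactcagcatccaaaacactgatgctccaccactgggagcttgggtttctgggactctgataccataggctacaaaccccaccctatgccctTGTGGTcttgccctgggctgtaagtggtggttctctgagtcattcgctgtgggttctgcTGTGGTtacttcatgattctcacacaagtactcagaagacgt
Gzma, chr13:113100974-113101173, minus strand: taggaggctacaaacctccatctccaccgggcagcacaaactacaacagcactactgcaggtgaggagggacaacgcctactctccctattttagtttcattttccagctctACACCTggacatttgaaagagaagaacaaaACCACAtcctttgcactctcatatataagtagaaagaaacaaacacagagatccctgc
Gzmk, chr13:113180958-113181157, minus strand: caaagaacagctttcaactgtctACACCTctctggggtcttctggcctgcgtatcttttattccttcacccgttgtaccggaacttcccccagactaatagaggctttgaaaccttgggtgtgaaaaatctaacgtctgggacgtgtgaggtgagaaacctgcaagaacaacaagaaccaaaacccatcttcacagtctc

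The promoters of *Gzmc* to *Gzmg* were close copies of one another, whereas that of *Gzmb*, as placed by RefSeq, was not. Over windows of 300 bases (250 before and 50 after the start site), the 10 pairs among *Gzmc*, *Gzmd*, *Gzme*, *Gzmf* and *Gzmg* were 78.4 to 93.7% identical, with *Gzmd* and *Gzme* the closest pair. *Gzmb* was 42.9 to 48.1% identical to these 5. Its RefSeq start site, at 56262334, lies upstream of its GENCODE start at 56262260, and a window placed on the latter was not compared. The 21 pairs that included *Gzma*, *Gzmk* or *Gzmm* were 44.2 to 50.3% identical, and *Gzma* with *Gzmk*, neighbours on chromosome 13, gave 45.7%. The longest run of letters found in all 5 close promoters was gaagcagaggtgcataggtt, 20 bases that lie between 70 and 26 bases before the start sites. Among 32851 promoters of 27025 genes, these 5 were the ones that held it.

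Exact matches of short motifs, searched on both strands, did not sort the granzymes by their ratios. AGGTGT was present in 13.7% of all promoter windows and in 4 of 9 granzyme windows (*Gzma*, *Gzmc*, *Gzme* and *Gzmk*). Of these, *Gzmc* was the granzyme with a ratio under 1, and *Gzmd* and *Gzmg*, both with high ratios, did not hold these letters. The match of *Gzme* lies 3 bases before to 2 bases after the start site and that of *Gzmc* from 2 to 7 bases after it, and the longer AGGTGTG, which overlaps AGGTGT, was held by these 2 windows (5.84% of all windows). *Gzmk* had a further AGGTGT match before the printed stretch, at 232 to 227 bases ahead of the start site. TGTGGT was present in 16.8% of all windows and in 8 of 9 granzyme windows, all except *Gzmk*. It occurred 2 times in *Gzmb* and 2 times in each of the 5 close copies, where 1 of the matches lies before the printed stretch. The close copies held it at matched places and do not count as separate occurrences. TGACTCA, an AP-1 site, was in 5.20% of all windows and in that of *Gzmb* alone among the granzymes. CTAATTA, searched for comparison, was in 656 of 32851 windows and in 0 of 9 granzyme windows. No T-box match overlapped a Runx match in a granzyme window. A match describes letters in a window and is not a binding site, and the absence of a match says nothing of the factor.

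Most granzyme genes were higher in Eomes-overexpressing cells, and the ratio ran from 0.841 for *Gzmc* to 30.6 for *Gzmk*. All 9 were expressed, 8 of them at an FPKM of at least 1 in both libraries. The ratio was more than 1.5-fold higher for 6 of 9 granzymes (*Gzma*, *Gzmd*, *Gzme*, *Gzmg*, *Gzmk* and *Gzmm*), or 66.7%, whereas 2.46% of the 9925 expressed genes were higher by that measure. No granzyme was more than 1.5-fold lower (0 of 9), compared with 5.19% of expressed genes. *Gzmb*, *Gzmc* and *Gzmf* lay within 1.5-fold, and *Gzmc* was the granzyme with a ratio under 1. Nearest to the threshold were *Gzmf*, 1.46-fold higher, and *Gzmm*, 1.63-fold higher. *Gzmm* passed the expression minimum through the Eomes library alone (0.75 in control and 1.22 with Eomes). With a minimum FPKM of 5 it was not counted, and 5 granzymes were higher. The median log2 ratio was 1.17 over the granzymes and -0.0037 over all expressed genes. Among the 20 highest ratios of all expressed genes 4 were granzymes: *Gzmk* at position 2, after *Eomes*, *Gzmd* at position 9, *Gzme* at position 11 and *Gzmg* at position 13. In bulk RNA, more cells that transcribe a gene and more RNA of it per cell cannot be told apart.

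**Figure D1:**
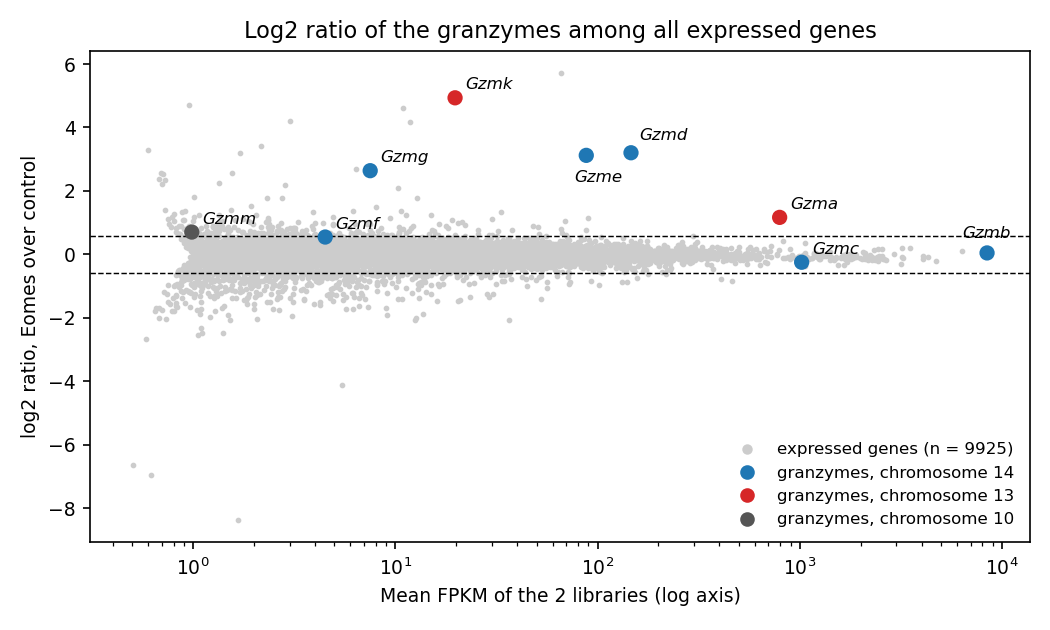
Each point is 1 of 9925 expressed genes, with the mean FPKM of both libraries on a log x axis and the log2 ratio of Eomes-overexpressing over control on the y axis. Coloured points are the 9 granzymes by chromosome and dashed lines mark 1.5-fold. *Gzmk*, *Gzmd*, *Gzme* and *Gzmg* lie far above the cloud, *Gzma* lies above it among abundant genes, and *Gzmb* and *Gzmc* lie within it.

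*Gzmb*, the main effector protease of CD8+ T cells, was the most abundant of all listed genes in both libraries and scarcely differed. Its FPKM was 8306.38 in control and 8562.92 with Eomes, a log2 ratio of 0.04. It lies on chromosome 14 from 56258838 to 56262260. From approximately 230047 and 236924 reads, the 95% exact binomial interval (Clopper-Pearson) of its log2 ratio was 0.036 to 0.052. Such intervals rest on approximated reads, take in counting error alone and set 1 library against the other, not the conditions. Its sign turned to -0.0095 when ratios were centred by GC content, so no direction is given for *Gzmb*.

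*Gzma*, the other classical granzyme, was higher in Eomes-overexpressing cells. It stood at 490.42 in control and 1099.77 with Eomes, a ratio of 2.24 and a log2 ratio of 1.17 (interval 1.13 to 1.20). This moved it from rank 162 to rank 92 by FPKM among all listed genes. At an average level of at least 100, where 910 expressed genes lie, the log2 ratios spanned -0.45 to 0.31 in their central 95%, and 3 genes (0.330%) were more than 1.5-fold higher. *Gzma* and *Gzmd* were 2 of these 3 genes, and the other was *Hsp90aa1*, a heat shock protein gene named after its values were seen (236.33 and 355.32). *Gzmd*, at 28.68 in control and 263.98 with Eomes, reached this level through the Eomes library alone. Its place among these genes is thus partly set by the averaging. The reads of *Gzma*, which lies on chromosome 13 from 113093825 to 113100981, share no stretch of 50 bases with another gene.

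*Gzmk*, a relative of *Gzma* with similar cutting specificity, had the highest ratio of the family. It was nearly silent in control, with an FPKM of 1.25, and reached 38.23 in Eomes-overexpressing cells. The log2 ratio was 4.93, or 30.6-fold, with an interval of 4.35 to 5.56 that reflects approximately 25 reads in control and 757 with Eomes. With a pseudocount of 1 the log2 ratio was 4.12. *Gzma* was 392-fold more abundant than *Gzmk* in control and 28.8-fold more abundant in Eomes-overexpressing cells, so the pair remained far apart in level. The gene spans chromosome 13 from 113171608 to 113225908 in GENCODE, where 1 long transcript starts far upstream, while the RefSeq start site is at 113180965.

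*Gzmd*, *Gzme* and *Gzmg* formed a group of neighbours that were all higher in Eomes-overexpressing cells. *Gzmd* (chromosome 14, 56129556 to 56132608) was at an FPKM of 28.68 in control and 263.98 with Eomes, 9.20-fold higher (log2 ratio 3.20, interval 3.07 to 3.33). *Gzme* (56117626 to 56120625) was at 18.14 and 157.74, 8.70-fold higher (log2 ratio 3.12, interval 2.95 to 3.29). *Gzmg* (56156582 to 56159579) was at 2.08 and 12.94, 6.22-fold higher (log2 ratio 2.64, interval 2.15 to 3.21, from approximately 36 and 227 reads). The order *Gzmd*, *Gzme*, *Gzmg* was thus the same in both libraries, and *Gzmd* was 1.58-fold above *Gzme* in control and 1.67-fold above it in Eomes-overexpressing cells. By rank among all listed genes, *Gzmd* moved from 2935 to 293 and *Gzme* from 4051 to 542. The transcripts of these 3 genes are partly identical, and 21.9% of the 50-base stretches of *Gzmd*, 20.6% of those of *Gzme* and 19.8% of those of *Gzmg* also occur in another chromosome 14 granzyme. RSEM divides such reads by estimation, so the split among the 3 is uncertain. Their sum was 48.9 in control and 434.66 with Eomes (8.89-fold higher). This sum is uncertain too, because stretches are also shared with *Gzmc*, *Gzmf* and *Gzmn*. Of the *Gzmc* stretches, 3.79% also occur in *Gzme*, and *Gzmc* had approximately 19134 reads in control, against 320 for *Gzme* and 36 for *Gzmg*. How far the division of reads affects these ratios was not tested. The read length was not given in the sources used here.

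*Gzmc* and *Gzmf*, with promoters much like those of *Gzmd* and *Gzme*, did not pass 1.5-fold. *Gzmc* (chromosome 14, 56231441 to 56234656), the second most abundant granzyme in control, had an FPKM of 1109.75 there and of 933.25 in Eomes-overexpressing cells, where it came behind *Gzma*. Its log2 ratio was -0.25 (interval -0.28 to -0.22), inside the central 95% of genes of its level. *Gzmf* (56205263 to 56211417) was at 3.66 and 5.34, a log2 ratio of 0.54 with an interval of 0.08 to 1.03. Of the 50-base stretches, 4.14% in *Gzmc* and 7.36% in *Gzmf* were shared with another granzyme. Because *Gzmc* was nearly level while *Gzmd* was not, *Gzmc* exceeded *Gzmd* 38.7-fold in control and 3.54-fold in Eomes-overexpressing cells.

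*Gzmm*, best known from NK cells, stayed at the edge of detection. Its FPKM was 0.75 in control and 1.22 with Eomes, from approximately 19 and 30 reads. The log2 ratio of 0.70 had an interval of -0.22 to 1.57, so a difference in *Gzmm* was not resolved at this depth even though its ratio passed 1.5-fold. Under 10 on average, the central 95% of 4254 expressed genes ran from -1.19 to 0.74, a range that held *Gzmm* and *Gzmf* but not *Gzmg*. Between 10 and 100 the same range was -0.51 to 0.44 over 4761 genes, with *Gzme* and *Gzmk* outside it. *Gzmk*, at 1.25 in control and 38.23 with Eomes, reached that level through the Eomes library alone. *Gzmm* lies on chromosome 10 from 79689020 to 79695261.

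**Figure D2:**
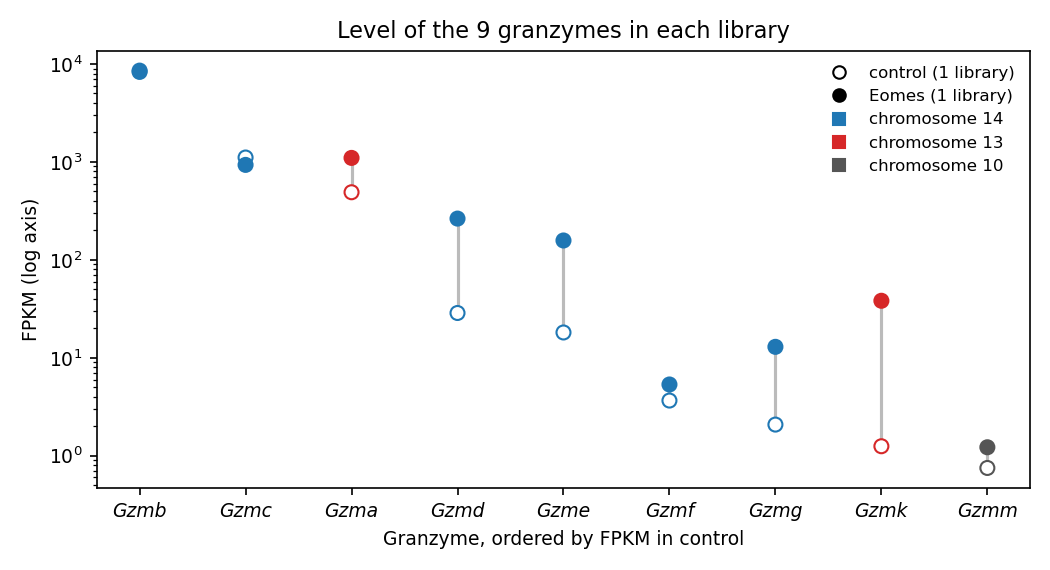
FPKM (log axis) of the 9 granzymes, ordered by their level in control, with 1 open point for the control library and 1 filled point for the Eomes library, coloured by chromosome. Levels ran from 0.75 to 8306.38 in control, and the long gaps between open and filled points are those of *Gzmd*, *Gzme*, *Gzmg* and *Gzmk*.

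The summed granzyme FPKM differed little, since *Gzmb* made up most of it. The sum was 9961.11 in control and 11075.39 with Eomes, 1.11-fold higher (log2 ratio 0.15), or 1.77% and 2.02% of the FPKM of all genes. Without *Gzmb* the sum was 1654.73 in control and 2512.47 with Eomes, 1.52-fold higher. Of the net difference of 1114.28, *Gzma* contributed 609.35 (54.7%), *Gzmb* 256.54 (23.0%), *Gzmd* 235.3 (21.1%) and *Gzme* 139.6 (12.5%), while *Gzmc* had a difference of -176.5. The part of *Gzmb*, and with it the net and these percentages, holds for the deposited values only, since the sign of the *Gzmb* ratio turned with GC centring. *Gzmk*, with the highest ratio, contributed 36.98 (3.32%). The genes with the largest ratios and the genes with the most added transcript were therefore different ones, apart from *Gzmd* and *Gzme*.

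By chromosome, the makeup shifted from the chromosome 14 locus toward chromosome 13 by 5.34 percentage points. The 6 genes of chromosome 14 held 95.1% of the summed granzyme FPKM in control and 89.7% with Eomes, although their summed FPKM was 9468.69 and 9936.17. *Gzma* and *Gzmk* held 4.94% and 10.3%, with a summed FPKM of 491.67 in control and 1138.0 with Eomes (2.31-fold higher). Nearly all of the chromosome 13 share was *Gzma*, at 4.92% and 9.93%, whereas *Gzmk* was at 0.0125% and 0.345%. Chromosome 10, with *Gzmm* alone, held 0.00753% and 0.0110%. When *Gzmb* was set aside, the chromosome 13 share was 29.7% in control and 45.3% with Eomes.

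Within chromosome 14 the shares moved in different directions. *Gzmb* held 83.4% of the whole sum in control and 77.3% with Eomes, and *Gzmc* held 11.1% and 8.43%. *Gzmd* went from 0.288% to 2.38% and *Gzme* from 0.182% to 1.42%, while *Gzmg* (0.0209% and 0.117%) and *Gzmf* (0.0367% and 0.0482%) stayed minor. *Gzma*, *Gzmb* and *Gzmc* together held 99.5% and 95.7%, which left 0.548% and 4.33% for the other 6 genes. The effective number of granzymes, the inverse of the summed squared shares, was 1.41 in control and 1.62 with Eomes.

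**Figure D3:**
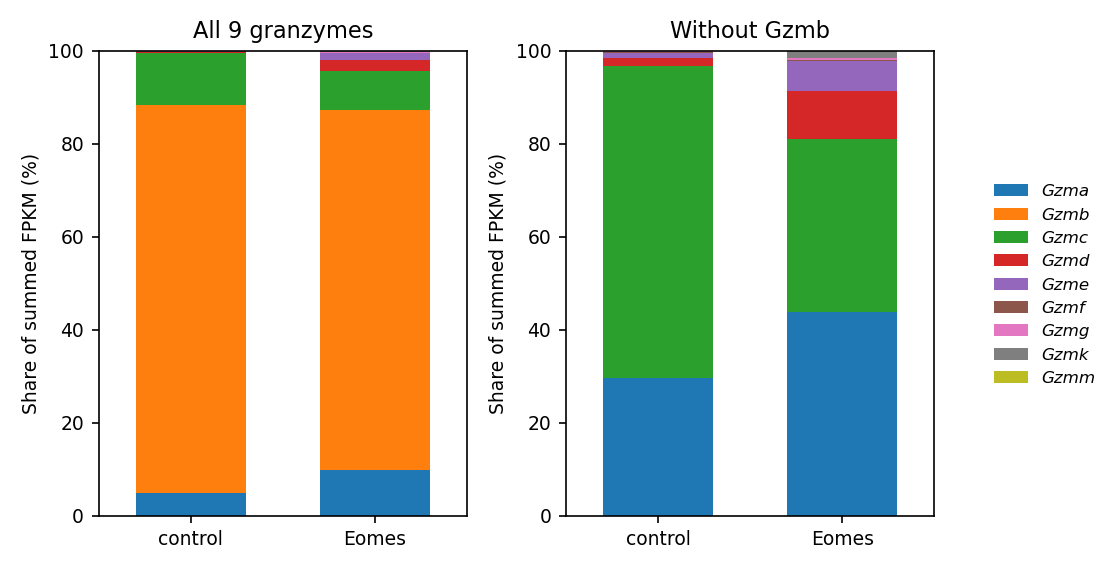
Stacked bars give the percentage of the summed FPKM that each granzyme held in the control and the Eomes library, for all 9 granzymes on the left and without *Gzmb* on the right. *Gzmb* filled 83.4% and 77.3% of the left bars, and *Gzma*, *Gzmd* and *Gzme* were wider in the Eomes library on the right.

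Along chromosome 14 the ratios fell into 2 neighbouring blocks. *Gzme*, *Gzmd* and *Gzmg*, within 42.0 kb, had log2 ratios of 2.64 to 3.20, and after a gap of 45.7 kb *Gzmf*, *Gzmc* and *Gzmb*, within 57.0 kb, had log2 ratios of -0.25 to 0.54. The gap holds *Gzmn*, another granzyme gene, which was not listed in control and was at 0.34 in Eomes-overexpressing cells (approximately 6 reads). On the far side of *Gzme* lie cathepsin G and the mast cell proteases, which are granule proteases of other leukocytes. *Mcpt8*, a protease known from basophils, was at 0.37 in control and 3.94 with Eomes, a log2 ratio of 3.41 from approximately 6 and 63 reads (interval 2.19 to 4.89). *Ctsg*, at a gap of 15.1 kb from *Gzme*, was not listed in control and had an FPKM of 0.41 with Eomes, and *Cma1* was at 0.05 and 0.43. *Mcpt1*, *Mcpt2*, *Mcpt4*, *Mcpt9* and *Cma2* were not listed in either library. Of these 9 neighbours 4 were listed, and their summed FPKM was 0.42 in control and 5.12 with Eomes. The 1 that was expressed, *Mcpt8*, passed the minimum through the Eomes library alone. The mast cell markers *Fcer1a*, *Ms4a2* and *Tpsb2* were not listed in either library, *Kit* was at 0.78 and 1.04, and *Cpa3* was not listed in control and at 0.07 in Eomes-overexpressing cells. The part of other cell types in these low values was not tested. Beyond *Gzmb*, the next gene with more than a trace of signal was *Cenpj*, a centrosome gene, at 2.83 and 2.94.

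**Figure D4:**
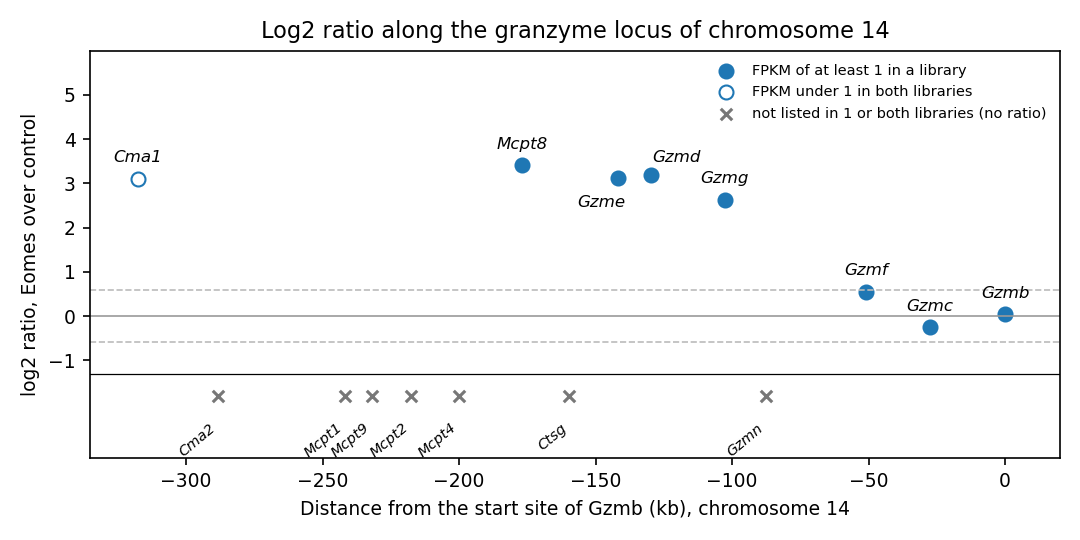
Log2 ratio of Eomes-overexpressing over control (y axis) for the protein-coding genes of the granzyme locus by distance in kb from the start site of *Gzmb* (x axis). Dashed lines mark 1.5-fold, and crosses under the solid line are genes without a value in 1 or both libraries. *Mcpt8*, *Gzme*, *Gzmd* and *Gzmg* lie near 3, *Gzmf* lies just under the upper dashed line, and *Gzmc* and *Gzmb* lie between the dashed lines.

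Some genes beside *Gzmk* and *Gzma* were more than 1.5-fold higher, and none of the expressed genes beside *Gzmm* was. On chromosome 13, 5 of 8 neighbours were expressed and 3 of these were more than 1.5-fold higher, with 0 lower and a median log2 ratio of 0.89 (2.46% of all expressed genes were higher and 5.19% lower). *Esm1*, which encodes a secreted proteoglycan, was at an FPKM of 5.94 in control and 15.38 with Eomes (log2 ratio 1.37). It lies between exons of the long *Gzmk* transcript, on the other strand. *Gpx8*, a peroxidase of the endoplasmic reticulum, was at 2.24 and 5.59 (log2 ratio 1.32). *Ccno* was at 0.6 and 1.11, from approximately 22 and 40 reads (interval 0.08 to 1.68), and passed the expression minimum through the Eomes library alone. *Snx18* and *Dhx29* had log2 ratios of 0.35 and 0.20. With a pseudocount of 1 the median of the chromosome 13 neighbours was 0.40 and 2 genes were higher. On chromosome 10, 5 of 8 neighbours were expressed, 0 were higher and 1 was lower, with a median log2 ratio of -0.34. The lower one was *Prss57*, at 1.22 in control and 0.35 with Eomes, which passed the expression minimum through the control library alone. With a minimum FPKM of 5, 0 of these neighbours were lower. *Bsg*, a membrane glycoprotein gene beside *Gzmm*, was at 405.62 and 320.82.

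Coding sequences were most alike within the chromosome 14 locus, and likeness in sequence went with a similar ratio for some pairs and not for others. Coding sequences, which ran from 741 to 792 bases, were 71.1 to 93.3% identical among *Gzmc* to *Gzmg* and 48.4 to 55.3% identical over the 21 pairs with *Gzma*, *Gzmk* or *Gzmm*. *Gzmd* and *Gzme*, 93.3% identical in coding sequence, had log2 ratios of 3.20 and 3.12. *Gzme* and *Gzmf*, 84.8% identical, had log2 ratios of 3.12 and 0.54. *Gzmb* was closest to *Gzmc* (75.6%), its neighbour, and both lay within 1.5-fold. *Gzma* and *Gzmk*, 55.3% identical, were both higher, with log2 ratios of 1.17 and 4.93. *Gzma* with *Gzmb*, on another chromosome, gave 53.9%.

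**Figure D5:**
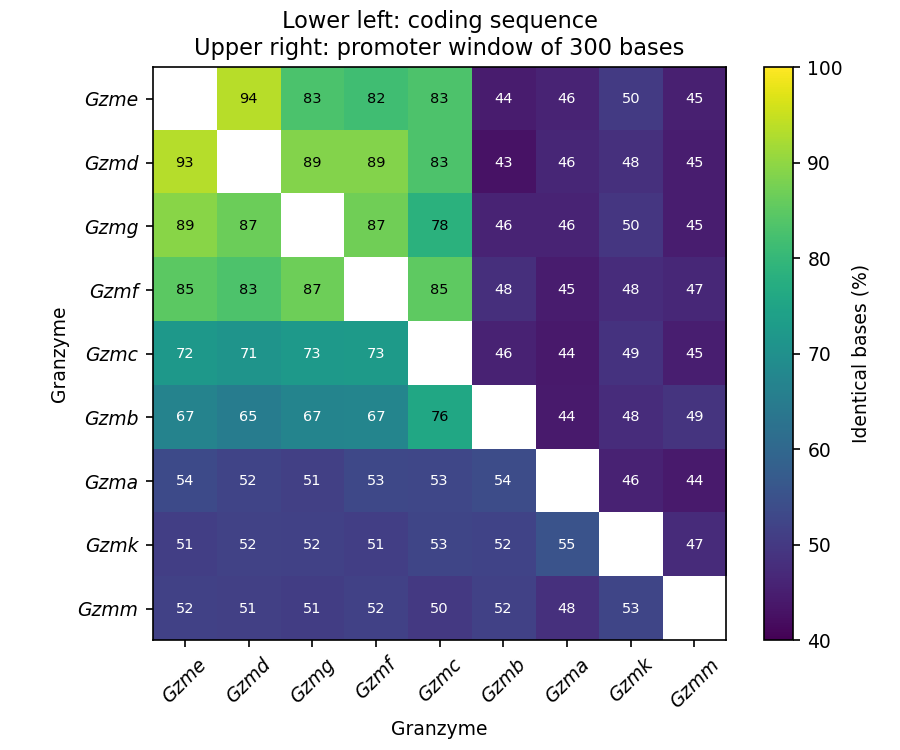
Percentage of identical bases for the 36 pairs of granzymes, coding sequences in the lower left and promoter windows of 300 bases in the upper right, with the colour scale starting at 40%. *Gzme*, *Gzmd*, *Gzmg*, *Gzmf* and *Gzmc* form a bright block on both sides of the diagonal. With these 5, *Gzmb* was 65.1 to 75.6% identical in coding sequence and 42.9 to 48.1% identical in promoter sequence.

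Few other genes had the levels of *Gzmd*, *Gzme*, *Gzmg* or *Gzmk* in both libraries. Likeness was measured as the distance between 2 genes in log2 FPKM over the 2 libraries. The same 2 values give the ratio, so a lack of near genes at a high ratio is not a separate result. *Gzmd* and *Gzme* had 0 genes outside the family within a distance of 1, and the nearest were *Id2* (56.31 and 123.64, distance 1.46) and *Spp1* (45.32 and 92.87, distance 1.53), respectively. The gene nearest to *Gzmk* was *Khdc1c* (1.23 and 22.37, distance 0.77), and that nearest to *Gzmg* was *H2-Q10* (1.71 and 11.0, distance 0.37). *Gzma* was nearest to *Prf1*, which encodes perforin (709.13 and 940.31, distance 0.58), with 34 genes within a distance of 1. *Gzmb* was nearest to *Eef1a1*, a translation elongation factor gene (6087.59 and 6588.97, distance 0.59), and *Gzmc* to the ribosomal protein gene *Rpl39* (1190.46 and 928.72, distance 0.10). *Gzmf* and *Gzmm* had many genes at their level, with *Vrk2* and *Zfp51* nearest.

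Genes that activate, pack and deliver granzymes were mostly level. Of 12 such genes 10 were expressed, 1 was more than 1.5-fold higher and 0 were lower, with a median log2 ratio of 0.04, where 2.46% of all expressed genes were higher and 5.19% lower. *Ctsc*, which encodes the activating cathepsin C, was at an FPKM of 11.58 in control and 11.64 with Eomes. *Srgn*, the serglycin core protein on which granzymes are stored, was at 198.69 and 136.67, a log2 ratio of -0.54. *Prf1* had a log2 ratio of 0.41, and *Chst11*, a chondroitin sulfotransferase gene, was the higher one at 4.85 and 7.77. Granule release genes gave a similar picture, with 13 of 14 expressed, 1 higher and 0 lower, at a median of 0.08. The higher one was *Sytl2*, which encodes a Rab27 effector, at 3.4 and 6.41, while *Rab27a* and *Unc13d*, needed for granule docking and priming, had log2 ratios of -0.06 and -0.10. *Nkg7*, a granule membrane protein gene, was at 649.73 and 785.41. At 2-fold neither *Chst11* nor *Sytl2* was counted as higher, and *Chst11* also dropped out with a pseudocount of 1.

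Of the serpin genes listed as granzyme inhibitors 3 were higher, and the listed substrate genes lay within 1.5-fold, as most expressed genes did. Of 7 serpin genes listed as inhibitors, whose action on granzymes was not tested here, 6 were expressed. Of these 3 were higher and 0 were lower, with a median log2 ratio of 0.44. Among all expressed genes 2.46% were higher and 5.19% lower. The count of higher serpin genes was 2 with a pseudocount of 1, with GC centring, at 2-fold and with a minimum FPKM of 5. Their median over the list was 0.26 with a pseudocount of 1 and 0.17 with that minimum. *Serpinb9*, the inhibitor of granzyme B that protects the killer cell, was at an FPKM of 19.02 in control and 47.54 with Eomes (log2 ratio 1.32), a larger ratio than that of *Gzmb* itself. *Serpinb6b* had a log2 ratio of 1.12 and *Serpinb1a* was at 0.78 and 1.28, whereas *Serpinb6a* and *Serpina3g* had log2 ratios of -0.27 and -0.06. *Serpinb1a* passed the expression minimum through the Eomes library alone. Of 18 genes whose proteins granzymes cut in target cells, 17 were expressed in these T cells, of which 0 were higher and 0 were lower. At the shares of all expressed genes (2.46% and 5.19%) so short a list would hold few such genes. The median log2 ratio of the expressed substrate genes was 0.14. Among these substrate genes *Bid* was at 15.65 and 22.37, and *Set*, a target of granzyme A, had a log2 ratio of 0.39.

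Some markers of lymphocyte lineages differed along with the granzymes. Of the 8 CD8 T cell markers 0 were higher and 2 were lower, *Cd8a* with a log2 ratio of -0.88 and *Cd2* with -0.64, and the median was -0.34. Over all expressed genes 2.46% were higher and 5.19% lower. Of the NK cell genes 4 of 6 were expressed and 2 were higher, *Klrb1c* at 0.31 in control and 5.74 with Eomes and *Fcer1g*, a signalling adaptor gene, at 8.85 and 21.1. The other 2 expressed NK cell genes had ratios under 1, *Klrk1* at 33.62 in control and 25.05 with Eomes and *Klre1* at 1.51 and 1.4. *Klrb1c* passed the expression minimum through the Eomes library alone. *Klrb1c* encodes a receptor that is typical of NK cells. The part of these differences in the granzyme values was not tested.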

How the data were processed

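Total RNA from 1 control and 1 Eomes-overexpressing culture was sequenced on an Illumina HiSeq instrument at BGI. The authors filtered reads with SOAPnuke, mapped them to mm10 with HISAT and Bowtie2 and computed expression with RSEM. The deposited values are FPKM by the header of the files, although the methods speak of RPKM, and genes are listed from 0.01 upward. Values not listed were set to 0.01, and symbols turned into dates (20 in control and 19 in Eomes-overexpressing cells) were left out. The granzymes and all gene lists were chosen with earlier results of these data known. All 9 granzymes, the genes of the lists and the gene nearest to each granzyme could be named. The threshold was 1.5-fold at an FPKM of at least 1 in 1 library, without a test.

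Log2 ratios and shares were obtained in Python (3.11.15) using scipy 1.17.1, pandas 2.3.3 and numpy 2.4.6, alignments with Biopython 1.88 and plots with matplotlib 3.10.9. The 1.5-fold calls were tested on simulated data whose changes were larger than 1.5-fold and set in genes at an FPKM of at least 5. Those data held counting error alone, and calls near the threshold or at low levels were not tested. The estimate of the read spacing was also tested on simulated data, and the other steps were not. Approximate reads came from the spacing of FPKM times length at low values, for genes with 1 transcript under 1500 bases. Of 134 and 147 such genes, 66.4% and 68.7% lay within 0.2 reads of a whole number. Reads used the shortest coding transcript of each gene in GENCODE vM21, and intervals are 95% and cover counting error only. Identity between granzymes was computed from coding sequences in place of the planned protein sequences, and sequences were matched by symbol for 9 of 9 granzymes. Alternatives were pseudocounts of 0.1 and 1, no minimum FPKM or a minimum of 5, a 2-fold threshold, 3 scalings between libraries, centring by GC content, sums without *Gzmb* or with *Gzmn*, and FPKM times transcript length.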

Additional observations from a re-analysis of the deposited data

How the results depend on the processing

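The count of higher granzymes was 6 in every alternative except a pseudocount of 1, a 2-fold threshold and a minimum FPKM of 5, where *Gzmm* dropped out and 5 were left, and 0 granzymes were lower in each of them. Expressed genes that were higher and lower numbered 118 and 285 with a pseudocount of 1, 69 and 175 at 2-fold, 1356 and 2088 without a minimum FPKM, and 95 and 213 with a minimum of 5. Scaling between libraries moved log2 ratios by at most 0.032. The log2 ratio of *Gzmb* was -0.0095 after centring by GC content, so that its sign turned. Over all alternatives the log2 ratio ran from 1.06 to 1.20 for *Gzma*, 3.16 to 3.26 for *Gzmd*, 3.05 to 3.18 for *Gzme*, 2.18 to 2.70 for *Gzmg*, 4.12 to 4.97 for *Gzmk*, 0.44 to 0.58 for *Gzmf* and 0.34 to 0.79 for *Gzmm*. Without *Gzmb* the log2 ratio of the summed FPKM was 0.60, and in control and Eomes-overexpressing cells chromosome 14 held 70.2% and 54.7%, chromosome 13 held 29.7% and 45.3% and chromosome 10 held 0.0453% and 0.0486%. With FPKM multiplied by transcript length, chromosome 14 held 96.8% and 93.1% and chromosome 13 held 3.22% and 6.91%.

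With 1 library per group, leaving out a replicate was not possible and no spread between cultures is known. No paired analysis was possible because each group holds a single library and no test was made. Depth limits *Gzmm*, *Gzmf*, *Gzmn* and the control level of *Gzmk* and *Mcpt8*. Stretches shared among *Gzmd*, *Gzme* and *Gzmg* limit the split among these 3 genes, and stretches shared with the abundant *Gzmc* limit their sum in control.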
